A study of Danio rerio with 48 samples.

Results

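Crystallins are the proteins that fill the fibre cells of the vertebrate eye lens. The genes described here were 10 alpha and beta crystallins chosen by name from the deposited table: cryaa, cryba1a, cryba1b, cryba1l1, cryba2a, cryba2b, cryba4, crybb1, crybb1l1 and crybb1l2. All 10 were among its 31658 entries, and 9 of them were among the 16431 genes tested, cryba1a falling under the filter on low counts. They were followed in single zebrafish embryos of the RIKEN WT strain that were homozygous for the mutant or for the wild-type allele of noc2l, a gene for a nucleolar protein. The mutant groups (noc2l -/-) held 9 embryos at 24 hours post fertilisation (hpf), 9 at 36 hpf and 7 at 48 hpf, and the wild-type groups (noc2l +/+) 6, 8 and 9 embryos. Per the labels all embryos came from 1 family with 1 mutant allele, so an effect of that allele and an effect of its linked chromosome cannot be told apart; none of the 10 genes lies on the chromosome of noc2l in the RefSeq table. The nature of the mutation is not stated in the sources used here. Each library holds the RNA of a whole embryo.

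Alpha crystallins are small heat shock proteins that keep other lens proteins in solution. Beta and gamma crystallins share a fold of Greek key motifs, and beta crystallins, which divide into acidic (beta-A) and basic (beta-B) types, assemble into oligomers. Fibre cells make crystallins in great amounts as they elongate and later lose their nuclei, so that most lens protein of a mature fibre was made during differentiation. In zebrafish the lens rounds up from the surface ectoderm and its first fibre cells elongate during the period sampled here.

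Levels are given in CPM, that is counts per 1000000 counts of the library after TMM normalisation, from 3' end sequencing in which counts do not scale with transcript length. Total counts per library ran from 797752 to 11016313, with a median of 5.99 times 1000000. The 3 libraries with under 1/3 of that median are called shallow: mutant 8 at 24 hpf, wild type 4 of the same age, and wild type 9 at 48 hpf. The transcript of noc2l had a median of 4.35 CPM in mutants against 19.1 CPM in wild types at 24 hpf, 5.08 CPM in mutants against 15.7 CPM in wild types at 36 hpf, and 3.75 CPM in mutants against 13.2 CPM in wild types at 48 hpf. It was called lower in mutants at each age, though the ranges overlapped and mutant embryo 5 at 24 hpf read 16.2 CPM. A gene is called where its adjusted p from edgeR's quasi-likelihood test, with Benjamini-Hochberg adjustment over all tested genes, is under 0.05. Replicates are separate embryos, and near-identical crystallin copies can share reads, so that values of single genes are uncertain. Of the 15 lens markers listed 14 passed the filter, all but cryba1a, and none was at 0 throughout. The list holds the 10 crystallins described here, so this count largely restates them. Beside them it holds only mipa, mipb, lim2.4, foxe3 and pitx3. Markers of muscle, red cells, neurons, epidermis and hatching gland were present in each group, as in a whole embryo.

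The first comparison followed normal development. In wild types 5 of the 9 tested crystallins rose between 24 and 36 hpf and none fell, where 4.95% of all tested genes were called higher and 3.52% lower. Between 36 and 48 hpf 4 rose and none fell, where 6.77% were called higher and 7.74% lower. The median log2 change of the 9 was 1.15 in the first interval and 0.80 in the second, against 0.01 in each over all tested genes. In whole-embryo RNA, more lens cells and more RNA per lens cell cannot be told apart.

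The acidic genes cryba4 and cryba2b made the steepest sustained climb. In wild types cryba4 had a median of 53.4 CPM at 24 hpf (10.5 to 63.9), 173 CPM at 36 hpf (highest 244) and 547 CPM at 48 hpf (394 to 715). No wild type at a later age lay as low as any at an earlier one. Its log2 changes were 2.07 (SE 0.40, edgeR adjusted p = 0.000251) and then 1.63 (SE 0.33, edgeR adjusted p = 0.000264). The gene cryba2b rose by 1.83 (SE 0.27) and then 1.50 (SE 0.22), with edgeR adjusted p of 4e-06 and 2.67e-06, and reached a median of 398 CPM at 48 hpf. The third acidic gene of steady rise, cryba2a, gained 1.03 (SE 0.23, edgeR adjusted p = 0.00183) and 1.29 (SE 0.20, edgeR adjusted p = 2.8e-06), and its wild-type medians were 44.8 CPM at 24 hpf, 101 CPM at 36 hpf and 232 CPM at 48 hpf.

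The single alpha crystallin of the set, cryaa, rose in the second interval. Its wild-type median was 1.24 CPM at 24 hpf, from 29 counts in all 6 embryos together and with 2 embryos at 0, then 2.68 CPM at 36 hpf and 12.2 CPM at 48 hpf. The first interval did not pass (log2 change 1.16, SE 0.46, edgeR adjusted p = 0.109), and the second did (2.05, SE 0.34, edgeR adjusted p = 3.98e-06).

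The other tested beta-A genes, cryba1l1 and cryba1b, rose in the first interval but were not called in the second. In wild types cryba1l1 had medians of 44.5, 147 and 218 CPM at 24, 36 and 48 hpf, and cryba1b had 73.3, 153 and 235 CPM. The first interval gave 1.72 (SE 0.43, edgeR adjusted p = 0.00619) for cryba1l1 and 1.15 (SE 0.33, edgeR adjusted p = 0.022) for cryba1b. In the second interval cryba1b read 0.79 (edgeR adjusted p = 0.0535), which passed with DESeq2 (0.83, DESeq2 adjusted p = 0.0279), and cryba1l1 read 0.68 (edgeR adjusted p = 0.232).

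The 3 basic genes of the set had no called change in wild types. In crybb1 the wild-type medians were 88.2 CPM at 24 hpf, 61.9 CPM at 36 hpf and 55.3 CPM at 48 hpf. At 36 hpf wild-type embryos 3 and 8 read 178 and 176 CPM while the other 6 lay between 38.4 and 73.7 CPM, so that the group was split. The log2 changes of crybb1 were 0.39 (SE 0.50, edgeR adjusted p = 0.737) and -0.61 (SE 0.44, edgeR adjusted p = 0.416). Wild-type medians of crybb1l1 were 53.2, 68.8 and 84.2 CPM over the 3 ages, and those of crybb1l2 were 30.2, 28.4 and 32.3 CPM, none of these steps being called.

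The gene cryba1a was near the floor of detection. It had 54 counts in all 9 mutants together against 14 counts in all 8 wild types at 36 hpf. At 24 hpf there were 18 counts in mutants against 3 in wild types, and at 48 hpf 16 counts in mutants against 12 in wild types. At 36 hpf each mutant had 2 or more counts, whereas 4 wild types had 0. The gene was not tested.

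**Figure D1:**
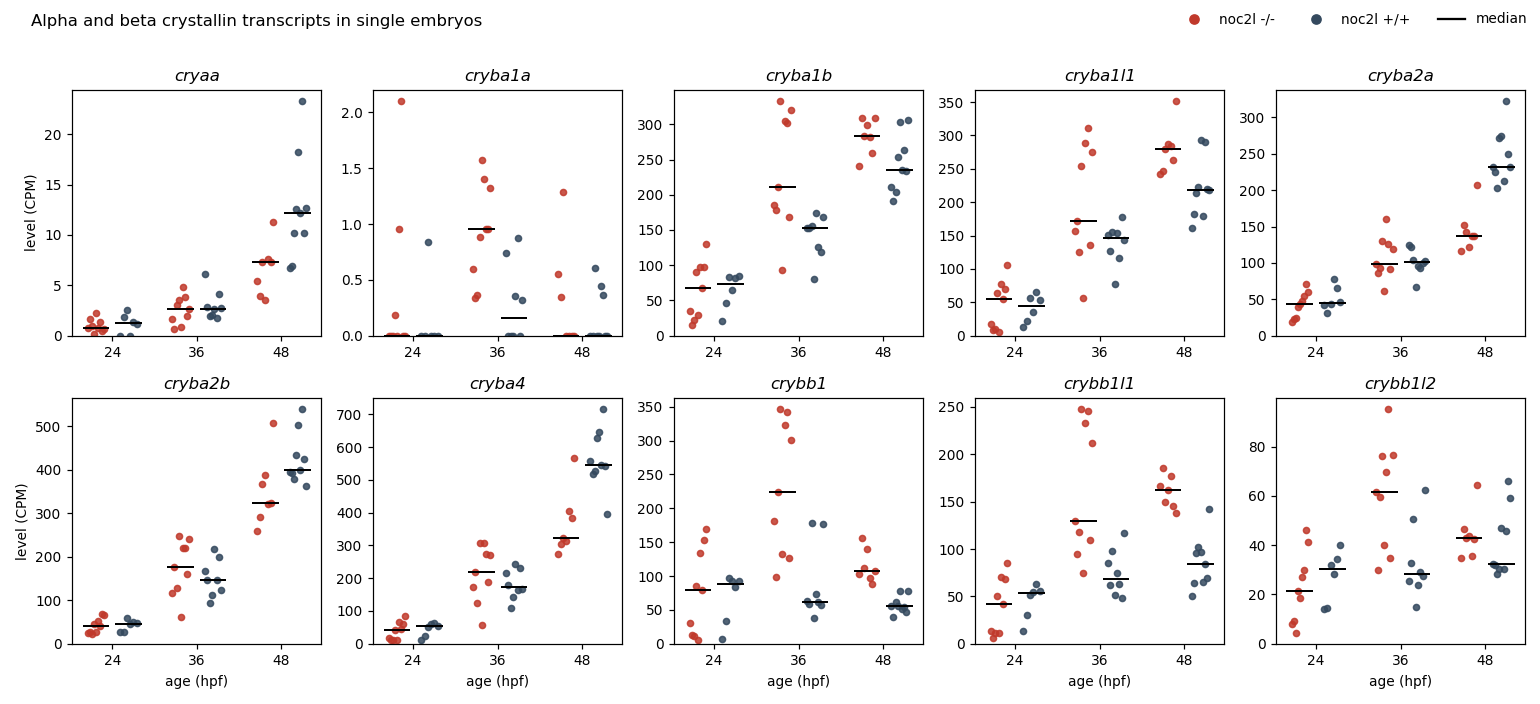
Level of each of the 10 crystallins in every embryo (vertical axes, CPM, linear and different for each gene) at 24, 36 and 48 hpf, with mutants (noc2l -/-, red) left of wild types (noc2l +/+, dark blue) and a black bar at the median. The wild-type median of cryba4 reaches 547 CPM at 48 hpf, whereas that of crybb1 is 88.2 CPM at 24 hpf and 55.3 CPM at 48 hpf.

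Mutants went through the first interval with a rise in each of the 9 tested genes, where 6.09% of all tested genes were called higher and 4.97% lower. The log2 changes from 24 to 36 hpf lay between 1.35 for cryba2a (SE 0.19) and 2.46 for cryba4 (SE 0.33). The basic genes, without a called change in wild types, rose in mutants by 1.61 for crybb1 (SE 0.43, edgeR adjusted p = 0.00808), 2.03 for crybb1l1 (SE 0.35, edgeR adjusted p = 3.38e-05) and 1.42 for crybb1l2 (SE 0.31, edgeR adjusted p = 0.000964). The test of the difference between genotypes in this change, added after the data were seen, did not pass for any of the 9, with 2 of them at an unadjusted p under 0.05 and none called by DESeq2 (1.22 for crybb1, 1.28 for crybb1l1 and 1.13 for crybb1l2, edgeR adjusted p of 0.872, 0.862 and 0.862). Over all tested genes this difference was called for 0% in edgeR, with 943 genes at an unadjusted p under 0.05 and 0 called by DESeq2.

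From 36 to 48 hpf 2 of the 9, cryba2b and cryaa, rose in mutants and none fell, where 4.75% of all tested genes were called higher and 5.26% lower. The values were 1.01 for cryba2b (SE 0.23, edgeR adjusted p = 0.00155) and 1.39 for cryaa (SE 0.34, edgeR adjusted p = 0.00298). The genes cryba4 (0.78, SE 0.33) and cryba2a (0.43, SE 0.20), both called in wild types over the same interval, had edgeR adjusted p of 0.137 and 0.187 in mutants. The gene crybb1 read -1.01 (SE 0.45, edgeR adjusted p = 0.175).

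At 24 hpf the comparison of genotypes called none of the 9 genes, where 0.122% of all tested genes were called. None of the 9 was at an unadjusted p under 0.05 (7.97% of all tested genes were). DESeq2 called none of the 9 and 46 of all tested genes. With the libraries of 24 hpf alone none was called either, where 0.0548% of all tested genes were. The log2 differences lay between -0.46 for cryaa (SE 0.49) and 0.17 for crybb1 (SE 0.49), with a median of -0.15 against 0.02 over all tested genes. Embryos of 1 genotype differed far more than the genotypes did. In mutants crybb1 ranged from 5.54 to 170 CPM with a median of 79.6 CPM, and in wild types from 7.55 to 97.5 CPM with a median of 88.2 CPM. Mutant embryos 1, 2, 3 and 5 had summed levels of the 10 crystallins between 111 and 165 CPM, and the other 5 mutants between 417 and 744 CPM. Wild-type embryos 1 and 2 read 149 and 229 CPM, and the other 4 between 458 and 509 CPM. The standard deviation of log2 CPM of crybb1 was 1.82 in mutants and 1.45 in wild types at 24 hpf, whereas the 48 hpf values were 0.29 for mutants and 0.32 for wild types. The test used 1 spread per gene shared by all 6 groups, these included.

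A developmental age score was set beside these values. It is the mean log2 CPM of the 200 genes that rose most from 24 to 48 hpf in wild types minus that of the 200 that fell most, built without crystallins, other lens genes and genes on the chromosome of noc2l. The 4 mutants of low crystallin sum at 24 hpf scored between -2.91 and -2.74, and the other 5 between -2.44 and -2.17. The 2 wild types of low sum scored -2.58 and -2.47, and the other 4 between -2.31 and -1.85. Within each genotype, then, the embryos with least crystallin transcript also had the lowest scores.

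At 36 hpf the basic genes had the largest positive differences between genotypes, none of them past the threshold. In mutants crybb1 ranged from 98.2 to 346 CPM with a median of 224 CPM, and in wild types from 38.4 to 178 CPM with a median of 61.9 CPM. All mutants lay above 6 of the 8 wild types, and 6 of the 9 mutants lay above every wild type. The log2 difference was 1.39 (SE 0.44, edgeR adjusted p = 0.193). For crybb1l1 the mutants ranged from 74.3 to 248 CPM (median 129 CPM) and the wild types from 48.2 to 117 CPM (median 68.8 CPM). Of the 9 mutants 6 lay above every wild type, and the log2 difference was 1.12 (SE 0.35, edgeR adjusted p = 0.175). The third basic gene, crybb1l2, had a median of 61.6 CPM in mutants against 28.4 CPM in wild types (0.86, SE 0.31, edgeR adjusted p = 0.336).

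Among the acidic genes at 36 hpf, cryba1b had a median of 210 CPM in mutants against 153 CPM in wild types, and 7 of the 9 mutants lay above every wild type (0.72, SE 0.28, edgeR adjusted p = 0.438). Differences were smaller for cryba1l1 (0.52), cryba4 (0.23), cryba2b (0.21) and cryba2a (0.09), and cryaa read -0.25, with edgeR adjusted p of 0.85 or more for these 5. In all, none of the 9 was called at 36 hpf, where 0.706% of all tested genes were. Of the 9, 4 were at an unadjusted p under 0.05, which held for 7.59% of all tested genes. DESeq2 called none of the 9 and 160 of all tested genes. With the 36 hpf libraries alone none was called either, crybb1l1 and crybb1 having edgeR adjusted p of 0.0871 and 0.13, where 0.974% of all tested genes were called. The median log2 difference was 0.52 for the 9 and -0.01 over all tested genes.

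Mutants at 36 hpf fell apart into embryos of high and low level. Embryos 4, 6, 7 and 9 had 301 to 346 CPM of crybb1 and 212 to 248 CPM of crybb1l1, while the other 5 had 98.2 to 224 CPM and 74.3 to 129 CPM. The summed level of the 10 crystallins was 1818 to 1947 CPM in those 4 embryos, 579 to 1104 CPM in the other 5 and 587 to 1061 CPM in wild types. The age scores of the 4 ran from -0.56 to -0.25, inside the range of wild types (-1.19 to -0.14). Of the other 5 mutants, 4 scored below all of those 4, at -1.40, -1.28, -1.04 and -0.65, and embryo 2 scored -0.45. With the age score as a covariate the genotype difference at 36 hpf was 1.39 for crybb1 and 1.15 for crybb1l1 (edgeR adjusted p = 0.181 and 0.131). It moved by over 1.5 times for cryba4 (0.45), cryba2b (0.38), cryba2a (0.19) and cryaa (-0.11), and none of the 9 was called. That fit took 1 slope per gene over all ages. In wild types the relation of crybb1 to the score was opposed between ages. At 24 hpf embryo 1 had the lowest score (-2.58) and the lowest level (7.55 CPM). At 36 hpf embryos 3 and 8 had the lowest scores (-1.19 and -0.77) and the highest levels (178 and 176 CPM). The same embryos were lowest and highest for crybb1l1. Opposed relations can cancel in a shared slope, so the part of age in these differences was not tested.

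**Figure D2:**
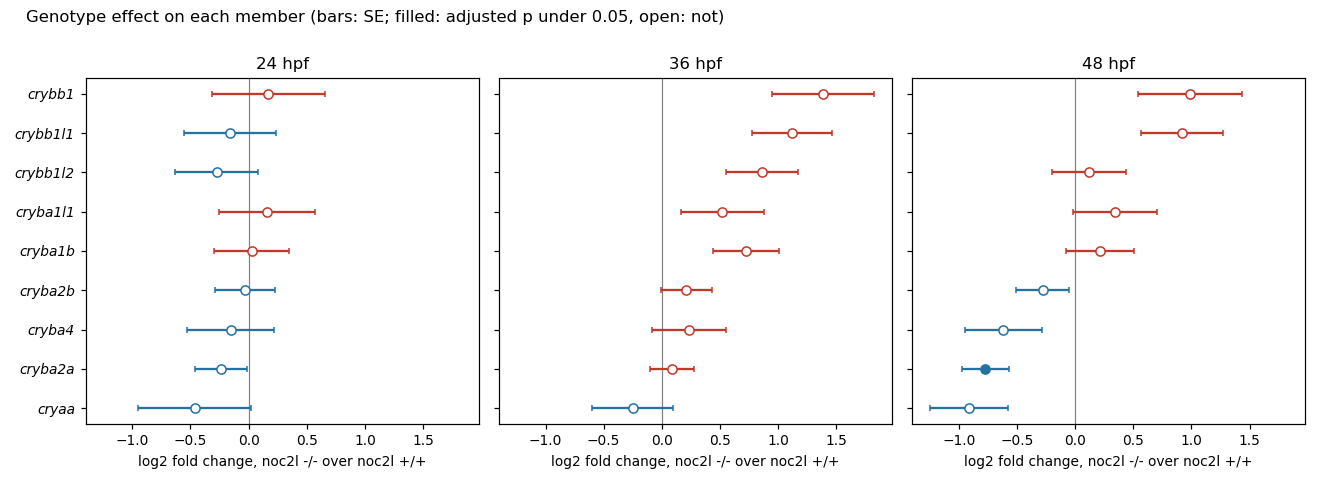
Log2 fold change of mutants (noc2l -/-) over wild types (noc2l +/+) for the 9 tested crystallins at 24, 36 and 48 hpf, with bars of 1 SE; red is above and blue below 0, and a filled point has an edgeR adjusted p under 0.05. At 48 hpf the points run from 0.99 for crybb1 to -0.91 for cryaa, and the 1 filled point is cryba2a at -0.77.

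At 48 hpf 2 basic genes, crybb1 and crybb1l1, had the largest positive differences and cryaa, cryba2a and cryba4 the largest negative ones. The gene cryba2a was lower in mutants than in wild types of the same age, with a median of 137 CPM in mutants (116 to 207) against 232 CPM in wild types (203 to 323). Of 7 mutants 6 lay below every wild type, and mutant embryo 7 was the exception. Its log2 difference was -0.77 (SE 0.20, edgeR adjusted p = 0.0239). It was the 1 gene of the 9 that was called, lower in mutants, where 2.2% of all tested genes were called, 1.49% higher and 0.712% lower. At an unadjusted p under 0.05 there were 4 of the 9 (11.3% of all tested genes), and DESeq2 called 1 of the 9 and 471 of all tested genes. The call did not hold with the age score as a covariate (-0.44, edgeR adjusted p = 0.27). It was also lost without wild-type embryo 7 or without any 1 of mutant embryos 1, 3, 4, 5 and 6 (-0.75 to -0.71, edgeR adjusted p of 0.0528 to 0.0716).

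Other genes with lower values in mutants were cryaa and cryba4. The mutants had a median of 7.29 CPM of cryaa (3.50 to 11.3) against 12.2 CPM in wild types (6.74 to 23.3), a log2 difference of -0.91 (SE 0.34, edgeR adjusted p = 0.181). For cryba4 the median was 323 CPM in mutants (274 to 566) against 547 CPM in wild types (394 to 715), and 5 of 7 mutants lay below every wild type (-0.62, SE 0.33, edgeR adjusted p = 0.502). The gene cryba2b had 323 CPM in mutants against 398 CPM in wild types as medians, with more overlap (-0.28, SE 0.23, edgeR adjusted p = 0.754).

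The basic gene crybb1 was the 1 crystallin of the set whose genotypes did not overlap at 48 hpf. Mutants ranged from 88.0 to 156 CPM with a median of 108 CPM, and wild types from 39.1 to 78.2 CPM with a median of 55.3 CPM. Among all tested genes 0.615% had every mutant above every wild type at this age. The log2 difference was 0.99 (SE 0.45), and with the spread shared over all ages it did not pass (edgeR adjusted p = 0.368). For crybb1l1 the mutants ranged from 138 to 186 CPM (median 162 CPM) and the wild types from 49.9 to 142 CPM (median 84.2 CPM); 8 of 9 wild types lay below every mutant, and the exception was the shallow embryo 9 (0.92, SE 0.35, edgeR adjusted p = 0.232). Differences were 0.34 for cryba1l1, 0.21 for cryba1b and 0.12 for crybb1l2, with edgeR adjusted p of 0.844 or more.

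When only the 16 libraries of 48 hpf were fitted, so that the spread was that of the groups compared, 6 of the 9 genes were called. Higher in mutants were crybb1 (1.00, SE 0.13, edgeR adjusted p = 1.14e-05), crybb1l1 (0.93, SE 0.16, edgeR adjusted p = 0.0022) and cryba1l1 (0.35, SE 0.10, edgeR adjusted p = 0.0479), where 2.4% of all tested genes were called higher in that fit. Lower were cryba2a (-0.76, SE 0.10, edgeR adjusted p = 5.07e-06), cryba4 (-0.61, SE 0.14, edgeR adjusted p = 0.0127) and cryaa (-0.90, SE 0.25, edgeR adjusted p = 0.0278), where 1.44% were called lower. The log2 differences of these 6 moved by at most a few hundredths between the fits, and their standard errors were smaller.

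The tests of whether the genotype difference changed with age did not pass for any of the 9 genes. Between 36 and 48 hpf it moved by -0.86 for cryba2a (SE 0.28, edgeR adjusted p = 0.842) and by -0.85 for cryba4 (SE 0.46, edgeR adjusted p = 1), where 0.0548% of all tested genes were called. An unadjusted edgeR p under 0.05 was found for 1 of the 9, against 4% of all tested genes. DESeq2 called none of the 9 and 14 of all tested genes, and gave 1 of the 9 no adjusted p. Between 24 and 48 hpf the values ran from -0.53 for cryba2a to 1.08 for crybb1l1 (edgeR adjusted p of 0.68 or more), where 0.0609% of all tested genes were called. Again 1 of the 9 was at an unadjusted edgeR p under 0.05, against 7.21% of all tested genes. DESeq2 called none of the 9 and 43 of all tested genes.

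Mutants at 48 hpf were also set against wild types that were 12 hours younger. Of the 9 genes 5 were higher in 48 hpf mutants than in 36 hpf wild types and none lower, where 5.75% of all tested genes were called higher and 6.11% lower. The called genes were cryba2b (1.22, SE 0.23, edgeR adjusted p = 0.000201), cryba1b (1.01), cryaa (1.14), crybb1l1 (1.10) and cryba4 (1.01), the last 4 with edgeR adjusted p of 0.0197, 0.0216, 0.039 and 0.0403. The calls of cryba4 and crybb1l1 did not hold without a filter on low counts (edgeR adjusted p = 0.0577 and 0.0558). The gene cryba2a was not called (0.52, SE 0.20, edgeR adjusted p = 0.094). Its median lay between those of the wild types, at 137 CPM in 48 hpf mutants, against 101 CPM in 36 hpf and 232 CPM in 48 hpf wild types. Mutant medians of cryba2b, cryba4 and cryaa also lay between. Those of crybb1, crybb1l1, crybb1l2, cryba1b and cryba1l1 lay above both wild-type medians. For crybb1l1 it was 162 CPM in 48 hpf mutants against 68.8 CPM in 36 hpf and 84.2 CPM in 48 hpf wild types.

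Some beta crystallin genes lie in pairs of an acidic and a basic member. In the RefSeq table of assembly GRCz12tu crybb1 is next to cryba4 and crybb1l1 next to cryba1l1, with no coding gene between. Likewise crybb1l2 is next to cryba1l2 and cryba1a next to crybb1l3, but no ratio was taken for these. At 36 hpf the genotype differences of crybb1l2 and cryba1l2 were 0.86 and -0.32, and at 48 hpf 0.12 and -0.22, none of them called. In wild types cryba1l2 rose from 24 to 36 hpf (1.38, edgeR adjusted p = 0.0108) and then read -0.62, not called. The wild-type changes of crybb1l2 were 0.28 and 0.29, neither called, and no test compared the partners. In wild types cryba4 and cryba1l1 were called higher from 24 to 36 hpf. Their neighbours crybb1 and crybb1l1 were not, and these partners too were not compared by a test. For those pairs the log2 ratio was taken within each embryo as a description, which library size does not touch. The ratio of crybb1 to cryba4 had a median of 0.81 in mutants against 0.61 in wild types at 24 hpf. At 36 hpf it was 0.16 in mutants (-1.15 to 1.24) against -1.67 in wild types (-2.01 to 0.69). At 48 hpf it was -1.53 in mutants (-2.38 to -0.96) against -3.40 in wild types (-3.71 to -2.33). There the genotypes overlapped only through the shallow wild-type embryo 9 at -2.33 and mutant embryo 7 at -2.38. For crybb1l1 to cryba1l1 the medians were -0.32 in mutants against 0.03 in wild types at 24 hpf, -0.31 in mutants against -0.85 in wild types at 36 hpf, then -0.82 in mutants against -1.51 in wild types at 48 hpf, with overlap at each age.

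The ratio of crybb1 to cryba4 was lower at later ages in both genotypes, and it was also set against the age score. Wild-type embryos 3 and 8 at 36 hpf, the 2 with the highest ratios of that group (0.69 and 0.09), also had the lowest scores (-1.19 and -0.77). The other 6 wild types had scores of -0.52 to -0.14 and ratios of -2.01 to -1.41. Mutants 4, 6, 7 and 9, with scores of -0.56 to -0.25, had ratios of 0.07 to 0.32, and the other 5 mutants ranged from -1.15 to 1.24. Mutant 2, with a score of -0.45, had the lowest mutant ratio, -1.15. Every mutant thus lay above those 6 wild types. However, mutants 4, 6, 7 and 9 had been grouped by high levels, crybb1 among them, and wild types 3 and 8 set apart by their ratios. The contrast at like scores thus describes chosen embryos and cannot test a genotype difference apart from age. At 48 hpf mutant embryo 1 and wild-type embryo 9 had like scores, 0.81 and 0.79, and ratios of -1.41 and -2.33. These are single embryos, and wild-type embryo 9 was shallow and had the highest ratio of its group. No test was made on such pairs. The score was also added as a covariate, with 1 slope over all 48 embryos. At 48 hpf that fit gave 1.17 for crybb1, 1.16 for crybb1l1, -0.44 for cryba2a and 0.11 for cryba4. Their edgeR adjusted p were 0.291, 0.118, 0.27 and 0.932. The score was itself lower in mutants at 48 hpf, with a median of 1.34 against 1.90 in wild types. This fit therefore cannot tell age and genotype apart, and the part of developmental age in the genotype differences was not tested.

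**Figure D3:**
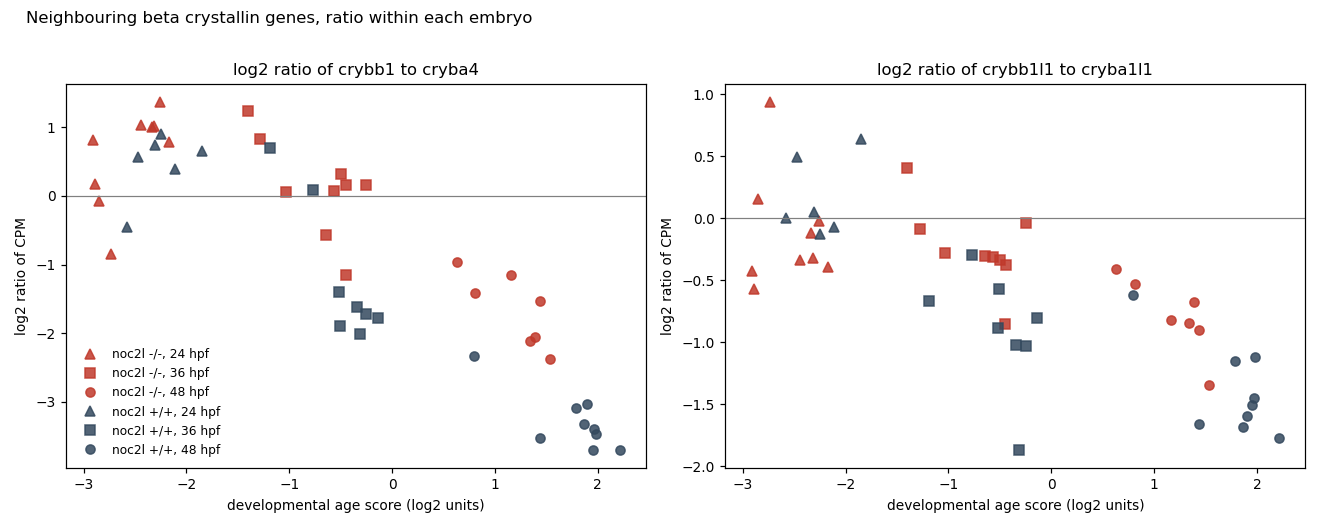
Log2 ratio of the CPM of neighbouring crystallin genes in each embryo (vertical axes) against its developmental age score in log2 units (horizontal axes), with mutants (noc2l -/-) in red, wild types (noc2l +/+) in dark blue, and triangles, squares and circles for 24, 36 and 48 hpf. The left panel is crybb1 to cryba4, where 4 of the 36 hpf mutants sit between 0.07 and 0.32 at scores of -0.56 to -0.25, and 6 wild types sit between -2.01 and -1.41 at scores of -0.52 to -0.14. Those 4 mutants were grouped by their high crystallin levels. Mutant embryo 2 of 36 hpf, at a score of -0.45, sits at -1.15.

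Summed over all 10 genes, the genotypes overlapped at 48 hpf. Together the genes had a median of 1709 CPM in mutants (1442 to 2262) against 1804 CPM in wild types (1652 to 2339). Gamma crystallins, the other large lens family, differed at the same age, with a summed median of 5018 CPM over their 40 entries in mutants (3273 to 8085) against 11880 CPM in wild types (8560 to 16850), ranges that did not overlap. Of 26 tested gamma crystallins 16 were lower in mutants at 48 hpf and none higher, where 0.712% of all tested genes were called lower and 1.49% higher. They had a median log2 difference of -1.47 against 0.12 for the 9 alpha and beta genes. The latter is the middle of values that went both ways, from 0.99 for crybb1 to -0.91 for cryaa. The gamma genes of smallest p were crygm2d11 (-3.84), crygm2d15 (-3.54) and crygm2d20 (-2.06). At 24 hpf the summed median of the 10 genes was 417 CPM in mutants against 467 CPM in wild types, and at 36 hpf 1104 CPM in mutants against 956 CPM in wild types. For the gamma family it was 259 CPM in mutants against 345 CPM in wild types at 24 hpf, and 1821 CPM in mutants against 2069 CPM in wild types at 36 hpf.

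**Figure D4:**
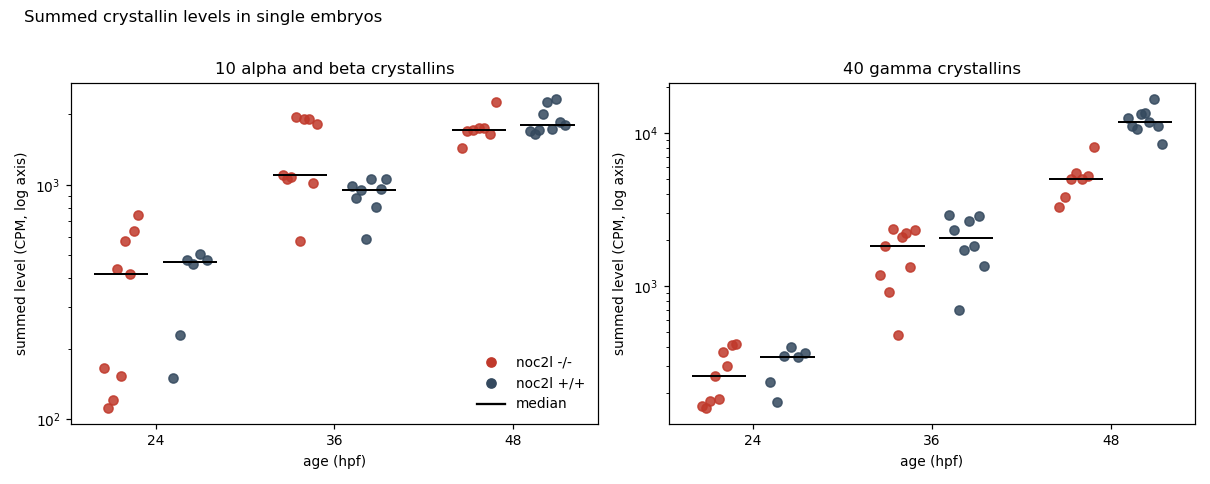
Summed level (vertical axes, CPM, log scale) of the 10 alpha and beta crystallins (left) and of the 40 gamma crystallins (right) in every embryo, with mutants (noc2l -/-, red) left of wild types (noc2l +/+, dark blue) at each age and a black bar at the median. At 48 hpf the alpha and beta sums overlap (medians 1709 CPM in mutants and 1804 CPM in wild types), and the gamma sums do not.

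Listed lens genes outside the crystallin families, and the remaining alpha and beta crystallins, showed no called difference between genotypes at any age where tested. This refers to the fit of all 48 libraries, where 0.122%, 0.706% and 2.2% of all tested genes were called at 24, 36 and 48 hpf. For these genes the fit of the 48 hpf libraries alone is not given. Of 7 further alpha and beta crystallins 5 were tested; crybgx read -2.77 at 48 hpf (SE 0.82, edgeR adjusted p = 0.0523), with a median of 0 CPM in mutants against 1.76 CPM in wild types, crybb1l3 read -0.72 and cryaba 0.41 (edgeR adjusted p of 0.547 and 0.683). In wild types crybb1l3, the neighbour of cryba1a, rose in both intervals (1.75 and 1.29, edgeR adjusted p of 0.0435 and 0.0214). It is a further basic gene, of low level (wild-type median 0.53 CPM at 24 hpf). The 3 basic genes of the set were not called in wild types, but no test compared them with crybb1l3. Another basic gene, crybb3, was called in neither interval (edgeR adjusted p of 0.844 and 0.774). Its wild-type medians were only 0.46, 0.48 and 0.22 CPM at 24, 36 and 48 hpf, so the lack of a call says little.

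Among 12 tested genes of fibre membranes, junctions and cytoskeleton none was called at 24, 36 or 48 hpf. Of all tested genes 0.122%, 0.706% and 2.2% were. At 48 hpf the median of the 12 was -0.06. The smallest p there belonged to lim2.5 and lim2.4, of the lens intrinsic membrane protein family, at -1.94 (SE 0.56, edgeR adjusted p = 0.0505) and -0.53, and to dnase1l1l, a DNase-like gene, at -1.01 (edgeR adjusted p = 0.245 for lim2.4 and 0.159 for dnase1l1l). Of 16 tested lens transcription factors none was called at any of the 3 ages, with sox1a at -0.43, foxe3 at 1.29 and tfap2a at -0.23 at 48 hpf (edgeR adjusted p of 0.363, 0.476 and 0.484). At the shares of all tested genes given above, the lack of a call among 12 or 16 genes says little. In wild types 5 fibre genes rose and 1 fell from 24 to 36 hpf, where 4.95% of all tested genes were called higher and 3.52% lower. From 36 to 48 hpf 6 rose and 1 fell, where 6.77% were called higher and 7.74% lower. Listed retina and photoreceptor genes, of which 15 of 19 passed the filter, had a summed median of 108 CPM in mutants (89.8 to 147) against 161 CPM in wild types (141 to 228) at 48 hpf. Their part in the crystallin differences was not tested.

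The 6 genes outside the family whose log2 CPM most resembled the mean of the 9 crystallins over the 48 embryos were mylpfb, icn, tnnt3b, mylz3, pvalb4 and ank1a, with Pearson correlations of 0.92 to 0.93 and Spearman correlations of 0.80 to 0.85. Of these, mylpfb and mylz3 (myosin light chains), tnnt3b (a troponin T) and pvalb4 (a parvalbumin) are genes of muscle. The gene icn was among the listed epidermis markers, and ank1a was in no marker list. The points share the 3 ages, over which all of these genes change. Within single groups the Pearson correlations ran from 0.84 for mylz3 to 0.95 for mylpfb in 24 hpf mutants, and from -0.74 for tnnt3b to 0.24 for icn in 36 hpf wild types. At 48 hpf they ran from 0.21 for pvalb4 to 0.80 for tnnt3b in mutants. In wild types of that age they ran from -0.27 for pvalb4 to 0.79 for mylz3. At 48 hpf the genotype differences of these 6 genes lay between -0.41 and 0.28, none called (edgeR adjusted p of 0.282 or more).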

How the data were processed

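Per the labels' protocols, RNA of single embryos was reverse transcribed with indexed primers, pooled and sequenced from 3' ends (Lasy-Seq). Tools in the submitters' processing notes were Salmon, BWA 0.7.17-r1188 and fastp 0.21.0, with build GRCz11; their order, the annotation and strand handling are not stated there. The authors deposited expected counts per gene symbol for 48 libraries, not normalised; 2 values were not whole, and all were rounded. The sample sheet was left aside.

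Groups came from sample titles. Genes were kept by filterByExpr (minimum count 10), leaving 16431 with 99.8% of counts. TMM factors and robust quasi-likelihood fits with 1 mean per group came from edgeR 4.0.16 in R 4.3.3 (common biological coefficient of variation 31.1%); SE is the log2 change over the root of F. DESeq2 1.42.0 and the other alternatives are given in the closing section. The procedure was run on simulated data with the same dispersion for every gene and group. In the real data the spread differed between ages, so the simulation does not bear on that difference. Ratios used a pseudocount of 0.5 CPM, and correlations log2 CPM with prior count 2. Wild types at 24 and 48 hpf were scored for age with genes chosen without them. Libraries of a group differed beyond sampling noise (chi-square per degree of freedom 5.26 or more).

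Neighbours and the chromosome of noc2l are from RefSeq GRCz12tu by symbol, another build, so no coordinates are given. Members and lists were chosen with earlier results of these data known. The named genes were the 10 members, noc2l, the 3 of smallest p at 48 hpf in each other lens list, and the 6 genes most like the members' mean. P-values concern embryos of 1 family.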

Additional observations from a re-analysis of the deposited data

Results flagged for a closer look

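Among 60 combinations of gene and group, 6 held an embryo farther from the rest than Dixon's limit at 95%. That limit flags about 1 in 20 where values are independent and normally spread. Here the genes share embryos and cryba1a is mostly at 0, so the 6 cannot be weighed against that rate. Mutant embryo 7 at 48 hpf was the highest of its group by such a gap for 3 genes: 351 CPM of cryba1l1 (next embryo 287 CPM), 207 CPM of cryba2a (next 152 CPM) and 64.4 CPM of crybb1l2 (next 46.7 CPM). That embryo also had the highest age score of the 48 hpf mutants (1.53) and the highest gamma crystallin sum (8085 CPM). Without it the genotype difference of cryba2a was -0.88 (edgeR adjusted p = 0.00895). The other 3 concern cryba1a near the floor of detection: 2.1 CPM in mutant embryo 7 at 24 hpf, 1.29 CPM in mutant embryo 3 at 48 hpf and 0.838 CPM in wild-type embryo 3 at 24 hpf, where the other 5 wild types had none.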

How the results depend on the processing

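Of 648 single-gene values under other settings (leave-one-out apart) 623 kept direction and call. The number of genes called at 24 hpf was 20, and 13 without shallow libraries, 9 with libraries of that age alone and 46 with DESeq2. At 48 hpf it was 362, and 632 with libraries of that age alone, where 3 crystallins were called higher and 3 lower; adding the age score left 0 called lower. For the difference 48 minus 24 hpf 10 genes were called, 24 without shallow libraries and 43 with DESeq2; for 48 minus 36 hpf 9, and 14 with DESeq2. Against 36 hpf wild types 3 crystallins were called higher in 48 hpf mutants without a filter on low counts, 4 with the replicate block and 6 with DESeq2. In these fits 1845, 1912 and 2222 genes were called in either direction. Values that changed sign were all of genes not called: at 24 hpf cryba1b without shallow libraries (-0.055), and with the age score cryba2b (0.18) and cryba4 (0.12); at 48 hpf with the age score cryba2b (0.23) and cryba4 (0.11); and the mutant change of crybb1l1 from 36 to 48 hpf with DESeq2 size factors in edgeR (0.011) and with DESeq2 (0.012). Leaving out 1 library of the age at a time, added after seeing the data, gave 82 to 125 genes at 36 hpf and 281 to 412 at 48 hpf, 0 to 1 crystallins called lower at 48 hpf, and moved 5 uncalled genotype differences by over 1.5 times. At 36 hpf these were cryba2a (-0.0032 without mutant 6 to 0.16 without mutant 5), cryaa (-0.42 without mutant 6 to -0.015 without wild type 1), cryba4 (0.15 without mutant 6 to 0.36 without mutant 5) and cryba2b (0.14 without wild type 3 to 0.33 without mutant 5), and at 48 hpf crybb1l2 (0.0042 without mutant 7 to 0.24 without wild type 8). No scaling moved the median of all genes by over 0.1. The cause was not tested.

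Same-numbered embryos shared only a number: correlations of their deviations ran from -0.05 to 0.07, and with the replicate block 16, 104 and 354 genes were called at 24, 36 and 48 hpf. Under the block cryba1b, cryba1l1 and crybb1 read -0.23, -0.22 and -0.20 at 24 hpf, the difference 48 minus 36 hpf read 0.10 for cryba1l1 and 0.21 for crybb1l1, and the mutant change of crybb1l1 from 36 to 48 hpf 0.24. Low counts limit cryaa at 24 hpf (47 counts in mutants, 29 in wild types) and cryba1a throughout.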
